A study of Homo sapiens with 6 samples.

Results

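The EMT transcription factors are a set of 8 genes, SNAI1, SNAI2, ZEB1, ZEB2, TWIST1, TWIST2, TCF4 and PRRX1, taken by name from the 58721 rows of a gene count table, in which each of the 8 symbols matched 1 Ensembl identifier. All 8 passed the filter on low counts that left 19263 genes for testing. The libraries came from A375, an established line of human melanoma cells that carries mutant BRAF, grown in serum. In 3 control libraries the cells carried a guide RNA against mCherry, a fluorescent protein gene foreign to the human genome, with genotype WT, and in 3 knockout libraries a guide RNA against SOX10, the transcription factor of the neural crest and melanocyte lineages. Both groups therefore carried a guide RNA, that of the controls against a gene which the human genome lacks. The sources used here do not give whether the knockout cells are a pool or 1 clone.

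Epithelial-mesenchymal transition (EMT) is the program by which cells lose epithelial junctions and become motile. Its transcription factors fall into families. SNAI1 (Snail) and SNAI2 (Slug) are zinc finger repressors, ZEB1 and ZEB2 carry zinc finger clusters around a homeodomain-like segment, TWIST1 and TWIST2 are basic helix-loop-helix proteins, TCF4 is an E protein, the partner class with which TWIST factors pair, and PRRX1 is a paired-type homeodomain protein. In the melanocyte lineage these factors are not interchangeable: ZEB2 and SNAI2 are known from melanocytes and differentiated melanoma, ZEB1 and TWIST1 from dedifferentiated, invasive melanoma, and the exchange of the first pair for the second is called the melanoma EMT factor switch. The comparison asks whether these libraries show that exchange when SOX10 is targeted.

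The 2 ZEB messages are also known as targets of the miR-200 microRNAs, which hold both factors low in epithelial cells. The mature sequences (RefSeq, GRCh38.p14) are shown because they fall into 2 groups by their seed, bases 2 to 8, here in capitals. The first 3 share the seed AAUACUG and the last 2 the seed AACACUG.
hsa-miR-200b-3p: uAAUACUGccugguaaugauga
hsa-miR-200c-3p: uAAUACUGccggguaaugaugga
hsa-miR-429: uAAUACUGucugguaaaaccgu
hsa-miR-200a-3p: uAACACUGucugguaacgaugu
hsa-miR-141-3p: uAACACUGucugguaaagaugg
The mature miR-200b, miR-200a and miR-429 lie together on chromosome 1 (1167160 to 1167181, 1167916 to 1167937 and 1169055 to 1169076), and miR-200c and miR-141 on chromosome 12 (6963742 to 6963764 and 6964155 to 6964176). On the sense strand of the longest annotated transcript, ZEB1 (6267 bases) held 6 matches to CAGTATT, the complement of the first seed, and 7 to CAGTGTT, that of the second. ZEB2 (9583 bases) held the same numbers, 6 and 7. Each was set beside protein-coding transcripts of like length (a ratio of at least 0.8 of the shorter to the longer), its own included. Of those like ZEB1 0.0604% held at least as many CAGTATT matches as ZEB1, and of those like ZEB2 0.233% held at least as many as ZEB2. SNAI1, TWIST1, TWIST2 and PRRX1 held neither heptamer, SNAI2 held 1 CAGTATT and TCF4 held 2 of each. These are letter matches only. The kit selected polyadenylated RNA, so mature microRNAs were not measured. MIR200CHG, the host transcript of miR-200c and miR-141, had 0 counts in all 6 libraries, which allows up to 3 counts per library (0.0383 to 0.0417 CPM, counting error only).

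Total counts per library lay between 70075002 and 78148565, and levels are given as CPM, the share of the TMM-scaled library size that a gene's reads make up. SOX10, the targeted gene, stood at 241, 237 and 223 CPM in control libraries and at 47.2, 47.8 and 41.5 CPM in knockout libraries (log2 fold change -2.36, SE 0.08, adjusted p = 1.84e-07), so SOX10 message was lower but present. Of the markers of the labelled melanoma type, MITF was well detected (57.5 ± 2.15 CPM in control), PMEL (0.623 ± 0.0368 CPM) and MLANA (0.874 ± 0.229 CPM) were low, and TYR had 1 count in 1 of 6 libraries. The 20 listed melanocyte lineage genes, SOX10 and MITF included, summed to 706 to 797 CPM in control libraries. SOX10 alone, at 223 to 241 CPM, was a large part of that sum, which thus says little about PMEL, MLANA and TYR. The labels do not say whether replicates were separate cultures, so a p-value here measures the spread between libraries only, and that spread may be technical.

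Of the 8 factors 6 changed, 4 downward and 2 upward. ZEB2, SNAI1, TWIST1 and ZEB1 fell, TWIST2 and PRRX1 rose, and SNAI2 and TCF4 did not pass the threshold. The threshold was an adjusted p of 0.05 (edgeR, quasi-likelihood test), which 28% of all tested genes passed, 14% upward and 14% downward. In 6 of the 8 factors every knockout library lay on 1 side of every control library, against 41.6% of all tested genes. The median absolute log2 fold change was 0.49 over the 8 factors and 0.21 over all tested genes, and the signed medians were -0.19 and -0.02. ZEB2 was the 1 factor of the 8 that was called and at least 2-fold lower, as were 4.72% of all tested genes. In a test against a 2-fold change (glmTreat) ZEB2 alone passed (adjusted p = 0.0168), against 1232 genes overall.

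**Figure D1:**
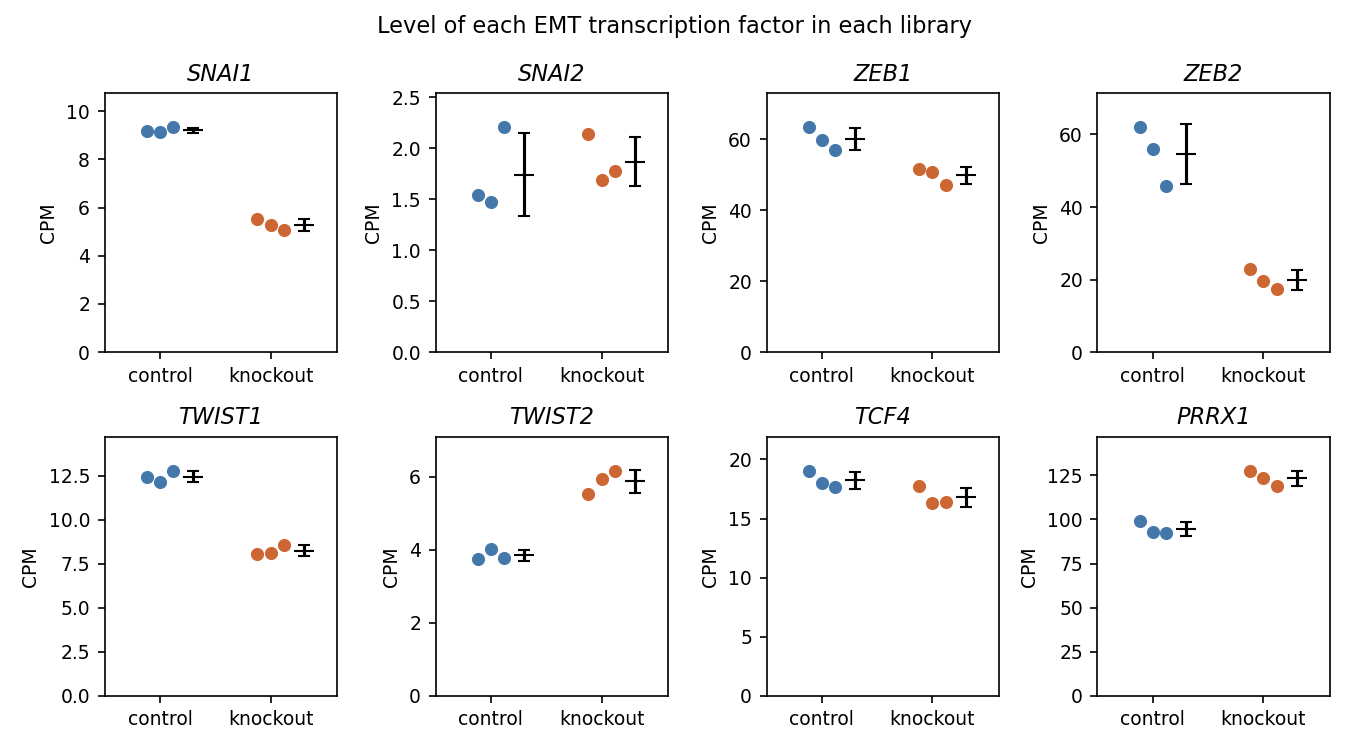
CPM (vertical axes, from 0) of each of the 8 EMT transcription factors in the 3 control and 3 SOX10 knockout libraries. Points are libraries and bars the mean ± SD. Groups are apart in SNAI1, ZEB1, ZEB2 and TWIST1 (lower in knockout) and in TWIST2 and PRRX1 (higher), and overlap in SNAI2 and TCF4.

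ZEB2, 1 of the 2 factors of the differentiated side of the switch, showed the largest change of the 8. It stood at 61.98, 56.1 and 45.7 CPM in control replicates 1, 2 and 3 and at 22.9, 19.6 and 17.4 CPM in the knockout libraries. The lowest control library was thus far above the highest knockout library. The mean went from 54.6 ± 8.22 to 19.97 ± 2.79 CPM (SD, n = 3), 2.73-fold lower (log2 fold change -1.45, SE 0.13, adjusted p = 6.96e-05), and 92.4% of tested genes had a smaller absolute change. Its replicates were among the most variable of the set, with a coefficient of variation of 15.1% in control and 13.97% in knockout libraries. ZEB2 lies on the minus strand of chromosome 2, 144364364 to 144524583 (GRCh38, ENSG00000169554). Of the 50-base stretches of its longest transcript 4.82% also occurred in transcripts of the antisense gene ZEB2-AS1 or the pseudogene ZEB2P1. Those rows held few counts, at most 1 per library in ZEB2-AS1 and 17 to 28 in ZEB2P1, beside 1363 to 4459 in ZEB2.

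SNAI2, the other factor of the differentiated side, was the least abundant of the 8 and did not pass the test. It had 1.54, 1.47 and 2.20 CPM in the control group against 2.14, 1.69 and 1.77 CPM in the knockout group, which is 109 to 159 counts per library. The groups overlapped, with control replicate 3 the highest of the 6. The log2 fold change was 0.10 (SE 0.19, adjusted p = 0.752), with a 95% interval from -0.33 to 0.54, that is from 0.793 to 1.45 times the control level. A fall of the size seen in ZEB2 lay outside this interval, whereas a rise of the size seen in PRRX1 lay within it. SNAI2 lies on chromosome 8 (ENSG00000019549).

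ZEB1, on the dedifferentiated side, was lower by a small amount. Control libraries held 63.3, 59.6 and 57.0 CPM and knockout libraries 51.7, 50.6 and 46.98 CPM, without overlap. The fall from 59.996 ± 3.19 to 49.8 ± 2.48 CPM was 1.21-fold (log2 fold change -0.27, SE 0.07, adjusted p = 0.0185). This call was lost when libraries were scaled by total counts (adjusted p = 0.0607) and when control replicate 1 (0.0752), control replicate 2 (0.0719), knockout replicate 2 (0.0786) or knockout replicate 3 (0.0644) was left out, always with a negative log2 fold change. With the replicate number fitted as a block in edgeR, ZEB1 passed (log2 fold change -0.27, adjusted p = 3.78e-07). ZEB1 lies on the plus strand of chromosome 10, 31318495 to 31529814 (ENSG00000148516). The antisense gene ZEB1-AS1 overlaps 4.23% of its exon bases, was measured at 2.05 ± 0.207 and 2.34 ± 0.200 CPM, a difference that did not pass (adjusted p = 0.337).

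TWIST1, the other factor of the dedifferentiated side, fell as well. Control libraries held 12.4, 12.1 and 12.8 CPM and knockout libraries 8.04, 8.08 and 8.58 CPM. Spread within groups was small beside the gap between them, and the change was 1.51-fold (log2 fold change -0.59, SE 0.07, adjusted p = 0.000332). TWIST1 lies on the minus strand of chromosome 7, 19020991 to 19117672 (ENSG00000122691), and an antisense gene on its other strand, with mean levels of 0.0863 and 0.0529 CPM, overlaps 6.94% of its exon bases. Of the 4 changes that the ZEB2 and SNAI2 to ZEB1 and TWIST1 exchange would consist of, these libraries thus held 1, the fall of ZEB2. SNAI2 was not shown to change, and ZEB1 and TWIST1 were lower, not higher.

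**Figure D2:**
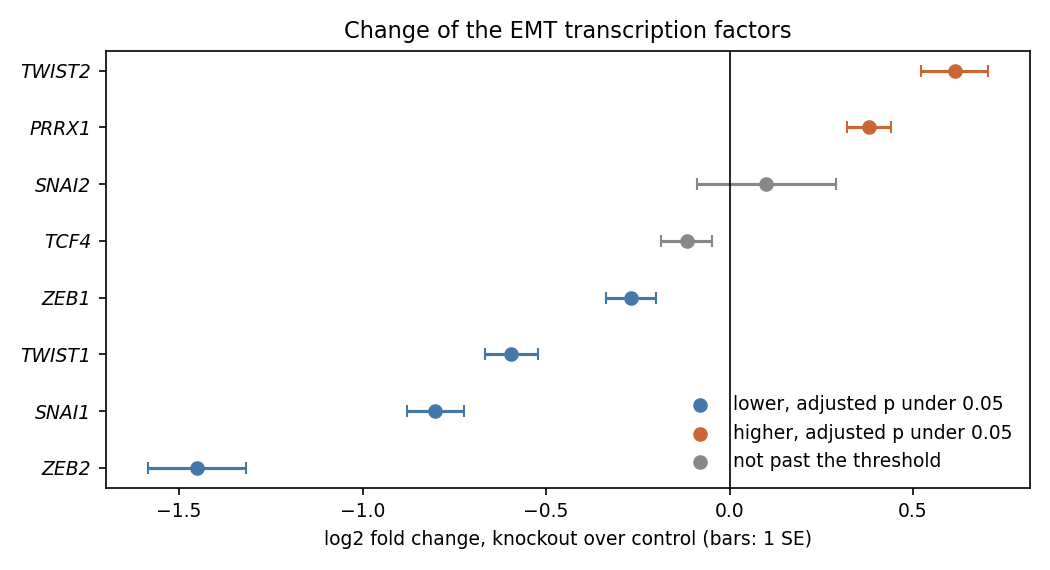
Log2 fold change of each factor, knockout over control (horizontal axis, points with bars of 1 SE from the edgeR fit over 6 libraries). ZEB2 is farthest from 0 at -1.45, SNAI1, TWIST1 and ZEB1 are also negative, PRRX1 and TWIST2 are positive at 0.38 and 0.61, and SNAI2 and TCF4 (grey) did not pass the threshold.

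Ratios within a library do not depend on how libraries are scaled. They come from the same counts as the changes above and restate them. With levels per kilobase of exons and 1 count added, ZEB1 exceeded ZEB2 by 2.96, 3.08 and 3.61 times in the control libraries and by 6.53, 7.47 and 7.83 times in the knockout libraries. Per kilobase of the longest transcript these ratios were 1.56, 1.62 and 1.91 in control and 3.45, 3.94 and 4.13 in knockout libraries, with the same difference between groups on the log2 scale. On the log2 scale the ZEB1 to ZEB2 ratio went from 1.68 ± 0.15 to 2.86 ± 0.14, a difference of 1.18, with both genes lower and ZEB2 more so. ZEB1 was thus above ZEB2 per length in every library, controls included. The TWIST1 to SNAI2 ratio moved the opposite way, from 13.3, 13.7 and 9.61 in control to 6.24, 7.95 and 8.03 in knockout libraries, a log2 difference of -0.71, and rests on the low counts of SNAI2. The cross ratios divided in the same manner: TWIST1 to ZEB2 was higher in all knockout libraries (log2 difference 0.85), and ZEB1 to SNAI2 overlapped between groups (log2 difference -0.39, and -0.60 without control replicate 3). These ratios were built from members of the set and are given without a test.

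**Figure D3:**
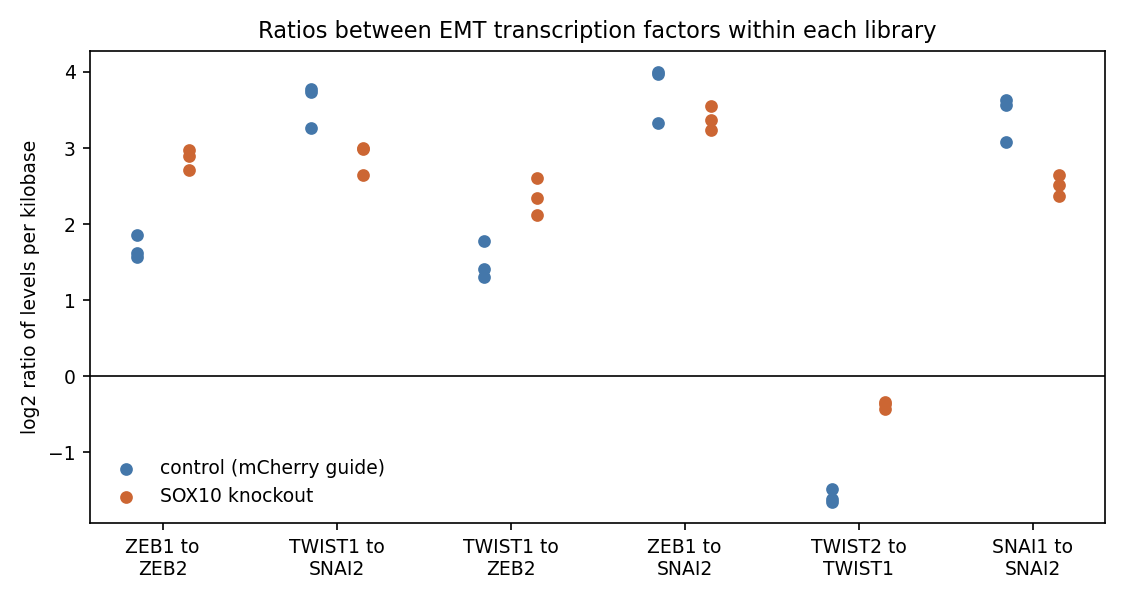
Log2 ratio of levels per kilobase of exons (vertical axis) for 6 pairs of factors, each point a library. ZEB1 to ZEB2 and TWIST2 to TWIST1 are higher in all knockout libraries, with differences of 1.18 and 1.20, TWIST1 to SNAI2 is lower by 0.71, and ZEB1 to SNAI2 overlaps between the groups.

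SNAI1, the Snail repressor that acts early in classical EMT, had the second largest change. Control libraries were tightly grouped at 9.19, 9.13 and 9.33 CPM, and knockout libraries stood at 5.54, 5.26 and 5.05 CPM. The gap between the groups was many times the spread within them. SNAI1 fell 1.74-fold, from 9.22 ± 0.105 to 5.28 ± 0.248 CPM (log2 fold change -0.80, SE 0.08, adjusted p = 9.34e-05). It lies on the plus strand of chromosome 20, 49982999 to 49988886 (ENSG00000124216), with no annotated gene across it. The third Snail gene, SNAI3, was at or below 2 counts in every library and was not tested.

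TWIST2, the near relative of TWIST1, went the other way. It rose from 3.75, 4.00 and 3.76 CPM to 5.53, 5.93 and 6.16 CPM, so that the lowest knockout library was above the highest control library. The rise was 1.53-fold (log2 fold change 0.61, SE 0.09, adjusted p = 0.00113), of about the size of the fall of TWIST1. No 50-base stretch of the longest transcript of TWIST1 or TWIST2 occurred in a transcript of another gene, so at that length their reads can be told apart. The TWIST2 to TWIST1 ratio per kilobase was 0.329, 0.358 and 0.319 in control and 0.745, 0.794 and 0.777 in knockout libraries. TWIST2 lies on the plus strand of chromosome 2, 238848032 to 238910543 (ENSG00000233608).

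PRRX1, a factor of mesenchymal progenitors and fibroblasts, was the most abundant of the 8 and rose further. Libraries of the control group held 99.4, 92.7 and 92.4 CPM and those of the knockout group 127.7, 123.6 and 118.9 CPM. The groups did not overlap, and the rise was 1.30-fold (94.8 ± 3.97 to 123.4 ± 4.37 CPM, log2 fold change 0.38, SE 0.06, adjusted p = 0.00176). PRRX1 lies on the plus strand of chromosome 1, 170662728 to 170739419 (ENSG00000116132). Its paralog PRRX2 was too low to be tested, with means of 0.129 CPM (control) and 0.0224 CPM (knockout), the latter below the floor of 3 counts.

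TCF4, the E protein E2-2, did not pass the test. It stood at 19.0, 17.97 and 17.7 CPM in the control group and 17.7, 16.3 and 16.4 CPM in the knockout group, with overlapping groups. The log2 fold change was -0.12 (SE 0.07, adjusted p = 0.267), with a 95% interval from -0.28 to 0.04. TCF4 lies on the minus strand of chromosome 18, 55222331 to 55664787 (ENSG00000196628).

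Compared per kilobase of exons, the factors kept the same order in both groups but for ZEB2 and TWIST2. In control libraries PRRX1 led (11.5 ± 0.481 CPM per kilobase), followed by ZEB1 (6.94 ± 0.368), TWIST1 (6.12 ± 0.154) and SNAI1 (5.47 ± 0.0620), whose libraries did not overlap from one gene to the next. ZEB2 (2.18 ± 0.328) and TWIST2 (2.04 ± 0.0766) overlapped each other, as did TCF4 (0.655 ± 0.0260) and SNAI2 (0.513 ± 0.119) at the foot. In knockout libraries PRRX1 (14.96 ± 0.530), ZEB1 (5.75 ± 0.286) and TWIST1 (4.05 ± 0.147) again led. SNAI1 (3.13 ± 0.147) and TWIST2 (3.13 ± 0.169) then overlapped, ZEB2 (0.797 ± 0.111) had moved below TWIST2, and TCF4 (0.604 ± 0.0290) and SNAI2 (0.550 ± 0.0711) again came last and overlapped. Of the summed level of the 8 factors per kilobase, PRRX1 made up 32.5% ± 0.461 in control and 45.4% ± 0.463 in knockout libraries, and ZEB2 6.14% ± 0.789 and 2.41% ± 0.275. With the length of the longest transcript in place of all annotated exons, ZEB2 changed places with SNAI1 in control libraries and TWIST2 with SNAI1 in knockout libraries. Overlaps depended on the length as well. TCF4 was then above SNAI2 in every library, with means of 2.18 and 0.615 in control and 2.02 and 0.660 in knockout libraries. ZEB2 (5.70) lay above TWIST2 (2.73) in all control libraries and overlapped TCF4 in knockout libraries (2.08 and 2.02). TWIST2 no longer overlapped SNAI1 in knockout libraries. The exon bases counted are then 9583 in place of 25058 for ZEB2, 8343 in place of 27828 for TCF4 and 1404 in place of 1878 for TWIST2. They are 1686 either way for SNAI1.

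**Figure D4:**
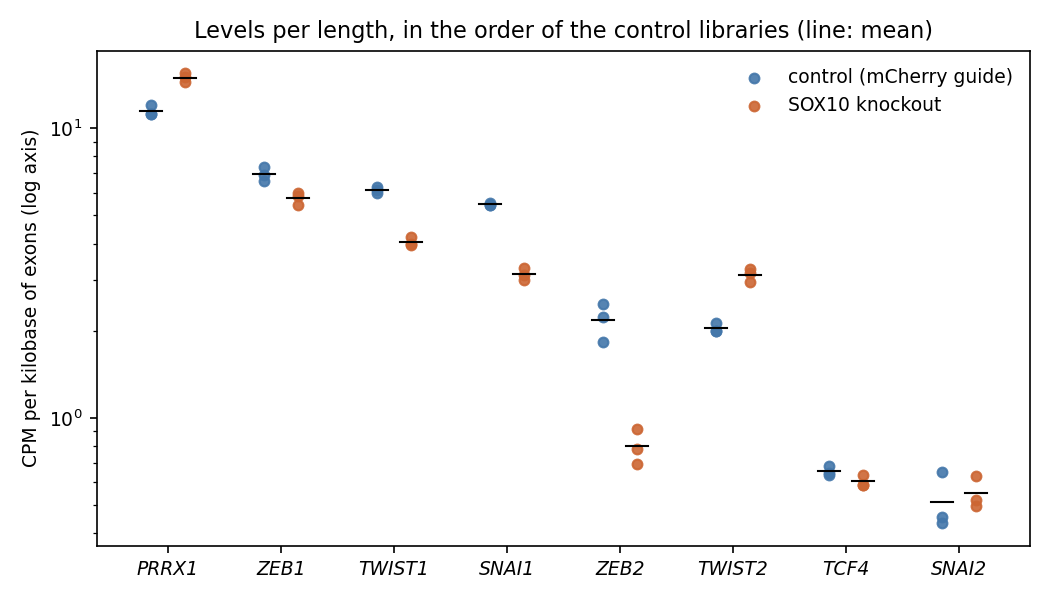
Levels in CPM per kilobase of exons (log axis) of the 8 factors in 3 control and 3 knockout libraries, ordered by the control mean, with points for libraries and lines for means. PRRX1 is highest at 11.5 and 14.96, ZEB2 moves from 2.18 to 0.797, and TCF4 and SNAI2 lie lowest in both groups.

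The promoter windows of the ZEB pair are shown because the 2 paralogs changed by different amounts and because Snail and ZEB proteins are known to bind E-boxes, the letters CANNTG, above all CAGGTG or its complement CACCTG. RefSeq windows of 300 bases, 250 before to 50 after a start, were found for 5 of the 8 factors. ZEB2 had 1 window, chr2:144520070-144520369 (minus strand), and ZEB1 had 7, of which that with the most CAGGTG matches, chr10:31318966-31319265 (plus strand), was chosen after its matches were counted. Capitals mark CANNTG, which includes CAGGTG.
ZEB2: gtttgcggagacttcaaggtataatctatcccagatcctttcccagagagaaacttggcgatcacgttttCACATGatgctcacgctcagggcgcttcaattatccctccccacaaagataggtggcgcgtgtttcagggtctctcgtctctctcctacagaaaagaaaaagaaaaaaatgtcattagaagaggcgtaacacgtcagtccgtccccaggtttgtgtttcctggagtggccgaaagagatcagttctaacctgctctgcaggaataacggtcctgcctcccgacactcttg
ZEB1: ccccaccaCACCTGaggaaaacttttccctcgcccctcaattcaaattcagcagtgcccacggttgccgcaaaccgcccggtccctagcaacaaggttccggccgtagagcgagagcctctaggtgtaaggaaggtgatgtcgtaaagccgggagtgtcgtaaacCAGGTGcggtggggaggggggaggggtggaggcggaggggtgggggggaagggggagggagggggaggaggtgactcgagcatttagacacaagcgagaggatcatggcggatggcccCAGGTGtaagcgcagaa
The ZEB1 window held 3 matches to CAGGTG over both strands, and 0.635% of 35116 windows held at least 3. As the best of 7 it is not comparable with that share, and 2 of the 7 ZEB1 windows held CAGGTG at all. The ZEB2 window held none, and 20.6% of windows held at least 1. The ZEB2 window held 1 E-box of another kind and 1 match to ACAAAG, a motif of the SOX type found in 16.1% of windows. The windows of TWIST2 and PRRX1 held no CANNTG, which 68.7% of windows held, no ACAAAG, no second SOX-type motif, ACAATG (10.8% of windows), and no AP-1 motif, TGANTCA (7.71% of windows). Of the 10 TCF4 windows 7 held CANNTG, 2 held ACAATG, 1 held ACAAAG, 1 held TGANTCA and none held CAGGTG. These are letter matches in short windows and were not tested for binding.

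Other E protein genes fell, and the genes of their ID inhibitors moved both ways. TWIST factors bind DNA with E proteins, and ID proteins sequester E proteins. Of the 6 genes of this list 3 rose and 3 fell, against 14% of all tested genes each way. The E protein genes TCF3 and TCF12 fell, TCF3 from 32.6 ± 2.33 to 20.8 ± 1.32 CPM (log2 fold change -0.65, adjusted p = 0.000370) and TCF12 from 204 ± 13.2 to 122 ± 5.85 CPM (-0.75, adjusted p = 7.45e-05), beside the third E protein, TCF4, which did not pass. Per kilobase of exons TCF12 stood at 21.6 in control and 12.9 in knockout libraries and was the most abundant of the 3 in both. Among the inhibitors, ID1 (33.8 ± 3.01 to 44.7 ± 2.49 CPM), ID2 (3.75 ± 0.599 to 6.15 ± 0.590 CPM) and ID3 (33.6 ± 3.66 to 43.4 ± 2.87 CPM) rose. ID4 fell from 1.71, 1.81 and 1.96 CPM to 0.0973, 0.0766 and 0.179 CPM, 15.5-fold (log2 fold change -3.93, SE 0.27, adjusted p = 1.08e-05). The ID3 call (adjusted p = 0.0172) was lost without control replicate 2 (0.0693), knockout replicate 2 (0.0617) or knockout replicate 3 (0.0576).

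A list of relatives and other developmental factors with EMT roles also held antisense genes, of which ZEB1-AS1 and SNAI3-AS1 were tested. Among its 12 tested genes 4 fell and 1 rose, with a median log2 fold change of -0.59. These are 33.3% and 8.33% of those tested, against 14% of all tested genes each way. The median rests in part on genes below 1 CPM that did not pass, such as GSC, SIX2 and SNAI3-AS1. TBX2, a T-box repressor, fell from 15.4 ± 1.20 to 3.20 ± 0.311 CPM, and MSC, a helix-loop-helix repressor, from 4.11 ± 0.269 to 0.858 ± 0.130 CPM. The forkhead genes went apart, FOXC1 falling from 23.8 ± 3.43 to 16.4 ± 0.498 CPM and FOXC2 rising from 11.3 ± 0.601 to 18.7 ± 1.33 CPM. MSC overlaps the antisense gene MSC-AS1 in 19.6% of its exon bases. Of the other 10 listed genes 4 had 0 counts throughout.

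Genes known to induce the factors rose more often than they fell. Of 27 tested, 13 rose and 6 fell (48.1% and 22.2%, against 14% of all tested genes each way), with a median of 0.19. BMP4, a growth factor of the TGF-beta superfamily, rose from 1.33 ± 0.0558 to 18.1 ± 0.357 CPM, HMGA2, an architectural chromatin protein, from 193 ± 9.73 to 569.6 ± 35.9 CPM, and the AP-1 subunit gene JUN from 13.8 ± 0.279 to 37.6 ± 1.44 CPM. TGFBR2, the type II TGF-beta receptor, also rose (log2 fold change 1.43, adjusted p = 1.96e-06). FOSL1, the AP-1 gene placed upstream of the melanoma switch, went from 176, 167 and 168 CPM to 200.4, 196 and 187 CPM, a rise of 0.19 on the log2 scale (adjusted p = 0.0383) whose call was lost with no low-count filter (0.0786) and without any single library but knockout replicate 3 (0.0506 to 0.171). LEF1, a mediator of WNT signalling, fell from 43.4 ± 2.46 to 12.7 ± 0.874 CPM, WWTR1, the gene of TAZ, from 871 ± 18.5 to 505 ± 19.5 CPM, and NFKB1 from 95.6 ± 5.58 to 57.4 ± 3.49 CPM.

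Of 22 corepressor genes 8 fell and 2 rose (36.4% and 9.09%, against 14% of all tested genes each way), with a median of -0.17. EZH2, the Polycomb methyltransferase, fell from 107 ± 3.82 to 76.9 ± 3.66 CPM, and AJUBA, a LIM protein that binds the Snail repression domain, rose from 60.2 ± 0.776 to 89.1 ± 4.51 CPM. The count of 8 was 5 without control replicate 1, 4 without control replicate 2, 3 without knockout replicate 2, 5 without knockout replicate 3 and 5 with total-count scaling, and that of 2 was 1 without control replicate 2 or 3 or knockout replicate 1 or 2. Of 23 tested ligases, kinases and deubiquitinases that act on EMT factor proteins 6 fell and 1, the ligase gene STUB1, rose (26.1% and 4.35%, against the same 14%), with a median of -0.06. PAK1, a kinase of Snail, fell from 66.3 ± 1.77 to 55.0 ± 2.15 CPM. Here the count of 6 was 3 without control replicate 1, 1 without control replicate 2, 0 without knockout replicate 2 and 3 without knockout replicate 3, and STUB1, which shares 42.4% of its exon bases with JMJD8 on the other strand, lost its call without control replicate 2 (adjusted p = 0.0551).

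Among the genes that EMT factors act on, both epithelial and mesenchymal ones rose more often than they fell. Of 50 listed epithelial genes, which these factors repress, 34 were tested and 16 failed the filter on low counts, 3 with 0 counts throughout. Of the 34 tested, 15 rose and 4 fell (44.1% and 11.8%), with a median of 0.34. The filter can admit a gene, in either direction, only through the group where it is high, as with GRHL3 among the rises. These shares and the median may thus be raised by the filter. Of 45 tested mesenchymal genes 27 rose and 7 fell (60% and 15.6%), with a median of 0.53. For comparison, 14% of all tested genes rose, 14% fell and their median was -0.02. Without control replicate 1, control replicate 2 or knockout replicate 3 the count of lower epithelial genes was 2.

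CDH1, the gene of E-cadherin and the classical target, was at or below 4 counts in every library of both groups and was not tested. CDH3, the gene of P-cadherin, rose from 0.473, 0.256 and 0.236 CPM to 1.32, 0.983 and 0.880 CPM (log2 fold change 1.72, SE 0.30, adjusted p = 0.00320), a low level in both groups. Other epithelial genes that rose were MAL2, a protein of apical transport, from 4.15 ± 0.302 to 81.4 ± 5.42 CPM, the grainyhead factor gene GRHL3, from 0.0417, 0.108 and 0 CPM to 2.49, 1.85 and 2.26 CPM, and the desmosome gene PKP2, from 6.54 ± 0.598 to 13.2 ± 0.313 CPM. EHF, an epithelial ETS factor, fell from 0.742 ± 0.0408 to 0.109 ± 0.0520 CPM.

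Among mesenchymal genes the cadherins divided. CDH2, the gene of N-cadherin, fell from 171, 158 and 146 CPM to 123, 114 and 109 CPM (log2 fold change -0.45, SE 0.08, adjusted p = 0.00262), while CDH11 rose from 1.22 ± 0.272 to 27.8 ± 1.83 CPM. VIM, the gene of vimentin, was abundant throughout (1340.4 ± 199 and 1100.2 ± 75.6 CPM) and did not pass (adjusted p = 0.0921), with overlapping groups. It passed without control replicate 3 (log2 fold change -0.40, adjusted p = 0.0033). The antisense gene VIM-AS1 shares 12.4% of its exon bases. FN1, the gene of fibronectin, rose from 154 ± 28.1 to 297 ± 53.1 CPM (log2 fold change 0.95, adjusted p = 0.00233). The integrin gene ITGB3 fell from 72.4 ± 8.25 to 12.9 ± 1.43 CPM.

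**Figure D5:**
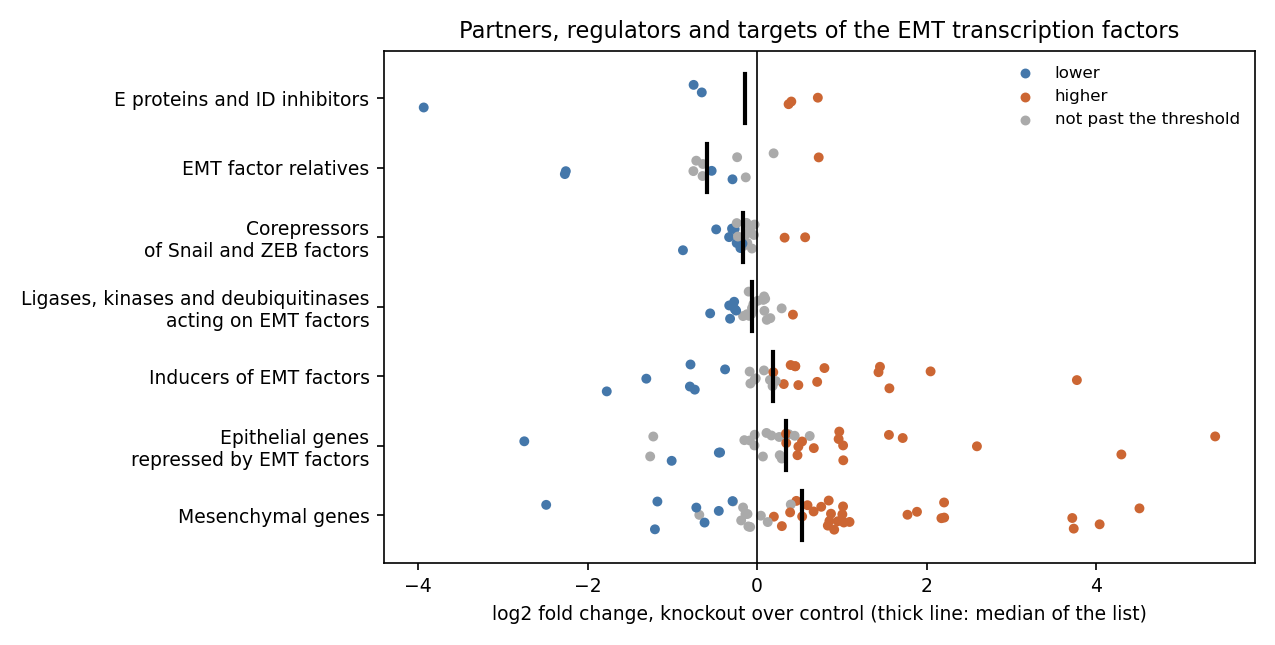
Log2 fold change, knockout over control (horizontal axis), of the tested genes in 7 lists around the EMT transcription factors. Points are genes, coloured by call, and the thick line is the median of each list, which is 0.34 for epithelial and 0.53 for mesenchymal genes and -0.17 for corepressors.

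Markers of other cell types also changed, and 14% of all tested genes rose and 14% fell. The fibroblast markers are not a separate set, since most of them, PDGFRA included, also stand in the mesenchymal list. Of 15 fibroblast markers 13 were tested, 8 rose (61.5% of those tested) and 1, PDGFRA, fell, DPT was at 0 in every library, and their summed level was 25.6 to 28.5 CPM in the control and 40.7 to 42.2 CPM in the knockout group. The 8 rises were 5 without control replicate 1, without knockout replicate 1 or with a filter of 1 CPM in 3 libraries. The main filter can admit a gene only through the group where it is high, so the shares of these marker lists may be raised by it. The PDGFRA call was lost without control replicate 1 or 2 or knockout replicate 2 or 3 (adjusted p = 0.0961 to 0.116) and with total-count scaling (0.0501). Since PRRX1, TWIST1 and TWIST2 are also expressed in fibroblasts, these values stand beside theirs. The labels name A375 melanoma cells as the only source of all 6 libraries, and the presence of other cells was not tested. Of 13 matched keratinocyte markers 8 were tested, 4 rose and 2 fell (50% and 25%), with KRT1 at 0 and a summed level of 175.8 to 194 CPM (control) and 315 to 338 CPM (knockout). PERP, which made up most of that sum in both groups, rose from 111 ± 2.86 to 253 ± 4.99 CPM, and KRT14 fell from 7.16 ± 0.789 to 0.249 ± 0.0110 CPM. Of 9 endothelial markers 5 were tested, 2 rose and 1, KDR, fell (summed 7.36 to 9.19 and 4.17 to 5.20 CPM, ERG at 0), and of 8 leukocyte markers 2 were tested and 1, LYZ, fell (10.9 to 14.4 and 1.57 to 2.31 CPM). Of 18 tested melanocyte lineage genes 10 fell, SOX10 included, and 6 rose (55.6% and 33.3%), MITF among them (log2 fold change 1.27, adjusted p = 9.86e-07). The 6 rises were 3 with a filter of 1 CPM in 3 libraries. The summed level of the melanocyte list, SOX10 included, was 706 to 797 CPM in the control and 253 to 272 CPM in the knockout group. In bulk libraries fewer cells that express a gene and less of its RNA per cell cannot be told apart.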

How the data were processed

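RNA was sequenced from 6 libraries of A375 cells, 3 control and 3 SOX10 knockout, grouped by their titles. The deposited values are whole-number counts of reads for each gene, with no normalization by the authors. Alignment and counting tools were HISAT2 and HTSeq on hg38, per the submitters' processing notes. Strand setting and annotation release are not stated there, so reads of genes that overlap on opposite strands may not be separated. All 58721 identifiers matched GENCODE release 29, which gave positions and lengths. The test was edgeR's (version 4.0.16, R 4.3.3; filterByExpr, TMM, two-sided quasi-likelihood test, no covariates, Benjamini-Hochberg over 19263 genes, threshold 0.05), and the procedure was tested on simulated data. Intervals are t intervals from the same fit. Levels between genes are CPM per kilobase of all annotated exons.

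The members, lists and tests were chosen with earlier results of these data known. Named genes were SOX10, the 8 factors, a panel of 14 genes tied to them and, for each of 12 lists, up to 3 called members a direction, by smallest p. SNAI3, PRRX2, PMEL, MLANA, TYR, ZEB1-AS1, ZEB2-AS1 and ZEB2P1 and genes of the lists outside this rule were chosen after their values were seen. Genes nearest in profile were taken by Euclidean distance of log2 CPM centred on the control mean, among protein-coding genes averaging 5 CPM or more. Alternatives were DESeq2 1.42.0, limma-voom 3.58.1, other scalings and filters, the replicate number as a block, glmTreat and leaving out each library; leaving out libraries and the longest transcript's length for the ratios were added after seeing the data. A few genes that the rule names are not reported here. Tables were made in Python 3.11.15.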

Additional observations from a re-analysis of the deposited data

How the results depend on the processing

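ZEB2, SNAI1, TWIST1, TWIST2 and PRRX1 kept their direction and their calls in all 12 alternative fits other than glmTreat and the replicate block, with log2 fold changes of -1.57 to -1.34, -0.83 to -0.76, -0.62 to -0.55, 0.58 to 0.66 and 0.36 to 0.42. ZEB1 passed in 7 of the 12 and missed the threshold with total-count scaling (-0.23) and without any of 4 single libraries, with a range of -0.31 to -0.22 when 1 library was left out; the cause was not tested. SNAI2 and TCF4 passed in none of the 12. The sign of SNAI2 turned without control replicate 2 (-0.0090), within a range of -0.0090 to 0.31. In glmTreat 1 factor, ZEB2, passed, and SNAI1 (-0.80), ZEB1 (-0.27), TWIST1 (-0.59), TWIST2 (0.61) and PRRX1 (0.38) did not, with 1232 genes called (659 higher, 573 lower) in place of 5396 (2694 and 2702). Leaving out 1 library gave 5 or 6 factors called and 1794 (without knockout replicate 2) to 2958 lower genes. With the longest transcript as the length, 6 of the 8 factors kept their rank in either group. In glmTreat 5 inducers, 3 epithelial and 6 mesenchymal genes were higher. Rises among ligases and kinases were 3 with total-count scaling and 2 with a filter of 1 CPM in 3 libraries, which left 3 melanocyte and 5 fibroblast genes higher. DESeq2 and the fit with no filter called 2 higher relatives in place of 1. Of 95 other named genes ACVR2A (-0.020 to 0.081) and ASB1 (-0.036 to 0.105), neither called, changed sign when 1 library was left out. The differences of the log2 ratios kept their sign in every setting run, with ZEB1 to SNAI2 from -0.60 to -0.27 when 1 library was left out.

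The replicate number as a block raised the calls to 9813 (4637 higher, 5176 lower) and left 6 factors called, ZEB1 among them (-0.27, adjusted p = 3.78e-07). It raised the lower calls among corepressors from 8 to 16, ligases and kinases from 6 to 10 (and higher ones from 1 to 6), epithelial genes from 4 to 7, mesenchymal genes from 7 to 12 and fibroblast markers from 1 to 2. The numbers were not taken as pairs, since they are not stated to mark a shared culture or day. Deviations from the group means correlated by 0.28, -0.0046 and 0.29 in libraries of number 1, 2 and 3 across 19263 genes. Libraries of unlike number gave -0.31 (control replicate 3 with knockout replicate 1) to 0.053. Control replicate 2 correlated best with knockout replicate 1 (0.053). These values do not decide whether the numbers mark pairs. With the block VIM (-0.28, adjusted p = 2.11e-07) and GORAB (-0.17, adjusted p = 0.00183) were called. Of the 8 factors SNAI2 had the fewest counts, 109 to 159 per library.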

Other observations

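Genes next to the factors on the chromosome were called in some cases and not in others. HDAC9, a histone deacetylase gene 18.6 kilobases from TWIST1, fell with it, from 17.8 ± 0.210 to 9.60 ± 0.236 CPM (edgeR log2 fold change -0.89, SE 0.06, adjusted p = 1.55e-05). HDAC4, 137.6 kilobases from TWIST2, fell from 16.3 ± 1.79 to 11.8 ± 1.08 CPM (-0.46, adjusted p = 0.0108, and 0.0547 without control replicate 2) beside the rise of TWIST2. ARHGAP12, next after ZEB1, fell from 144.9 to 97.2 CPM on average (-0.58, SE 0.05). GTDC1, 31.8 kilobases from ZEB2, stood at 14.9 ± 0.645 and 14.4 ± 0.253 CPM and did not pass (adjusted p = 0.626), nor did RNF114, 29.1 kilobases from SNAI1 (adjusted p = 0.676), or GORAB, beside PRRX1 (adjusted p = 0.310, and 0.00183 with the replicate number as a block). RAB27B, a RAB GTPase gene of vesicle transport, 326.8 kilobases from TCF4, rose from 21.1 ± 1.14 to 101.7 ± 6.68 CPM while TCF4 did not pass. Neighbours were the nearest tested protein-coding genes on either side, and distances run between the nearest ends of the annotated genes. For HDAC9 that end of TWIST1 is 19020991, whereas TWIST1, on the minus strand, starts at 19117672 and is farther away.

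The genes whose profile over the 6 libraries lay nearest to each changed factor, among 10122 candidates, were ADGRL1, MAML3 and CNTRL for ZEB2 (distances 0.139, 0.153 and 0.170 on the log2 scale), E2F2, HOMER2 and WWTR1 for SNAI1 (0.0777 to 0.0821), SPATA6, HACL1 and AK4 for TWIST1, WEE1, RAB5B and MSH6 for ZEB1, HCFC1R1 and CREG1 for TWIST2 and SIRT7, GOPC and MCU for PRRX1. None of these genes was among the 3 nearest by Pearson correlation, so the choice rests on the measure. HACL1, HCFC1R1 and MSH6 share over 15% of their exon bases with a tested gene on the other strand.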
